A study of Mus musculus with 16 samples.

Results

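The MHC class I and immunoproteasome genes described here were *H2-K1*, *H2-D1*, *B2m*, *Tap1*, *Tap2*, *Tapbp*, *Psmb8*, *Psmb9*, *Psmb10*, and *Nlrc5*, 10 of the 22911 named genes with a probe on the array. They were chosen by name, as the genes whose products make a class I molecule, cut its peptides, carry and load them, and switch the system on. All 10 had a probe, with 15 probes in all, and each is given by its brightest probe, which was well above background on all 16 arrays. Kidney RNA of 16 mice was measured, 4 mice of each of 4 genotypes. In the *Fcgr2b*-/- kidneys the mean of every gene was higher than in the wild-type kidneys, by 1.42-fold for *Tapbp* to 2.13-fold for *Nlrc5*. In the double-deficient kidneys all 10 means were near those of the wild-type kidneys. Only 2 of the 4 *Fcgr2b*-/- mice carried the high values, and none of the 10 genes passed the test in any comparison.

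The mice were 6 months old and the whole kidney was taken. The wild-type mice were labelled as C57BL/6, and the *Sting*gt/gt mice, labelled Sting-ko, had the same background. The *Fcgr2b*-/- mice, labelled Fcgr2b-ko and as lupus mice, and the *Fcgr2b*-/-.*Sting*gt/gt (double-deficient) mice, labelled Fcgr2b-ko, Sting-ko, were both on a 129/C57BL/6 background, so *Fcgr2b* loss and background cannot be told apart. *Fcgr2b* encodes the inhibitory Fc receptor for IgG, and mice without it develop a lupus-like disease. *Sting*gt is the Goldenticket allele, a functional knockout of STING, the adaptor through which cytosolic DNA induces type I interferon. Both losses were germline and held in every cell of the animal. The labels of the lupus group name *Fcgr2b* alone, while the study's heatmaps show those mice as heterozygous for *Sting*gt. Sex is not given in the labels.

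Class I molecules show peptides from inside the cell to CD8 T cells. Proteasomes cut proteins into peptides, the TAP transporter moves these into the endoplasmic reticulum, tapasin helps to load them, and the heavy chain travels to the surface together with beta-2-microglobulin. Interferons induce most of these genes together, and interferon gamma also swaps the catalytic subunits of the proteasome for the immunoproteasome subunits. NLRC5 binds no DNA itself and acts on class I promoters through proteins at the X and Y boxes, while NF-kappaB and interferon regulatory factors act at sites further upstream.

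The promoters of the genes for the heavy chains and the light chain, and the shared promoter of *Tap1* and *Psmb9*, are printed because the signals of these genes followed each other across the mice. The sequences are from RefSeq (GRCm38.p6) and end at the base before the start of the most upstream transcript. The windows of *H2-K1* at chr17:34000348-34000597 (minus strand), *H2-D1* at chr17:35262844-35263093 (plus strand), and *B2m* at chr2:122147437-122147686 (plus strand) are 250 bases each, read in the direction of the gene. *Tap1* and *Psmb9* start in opposite directions from an interval of 225 bases at chr17:34187331-34187555, printed on the plus strand, which is the strand of *Tap1*. Capitals mark the kappaB site of class I genes in *H2-K1* and *H2-D1*, the interferon-stimulated response element (ISRE) and the X2 and Y box cores in the first 3, and an X2 core and a Y box in the last.
H2-K1: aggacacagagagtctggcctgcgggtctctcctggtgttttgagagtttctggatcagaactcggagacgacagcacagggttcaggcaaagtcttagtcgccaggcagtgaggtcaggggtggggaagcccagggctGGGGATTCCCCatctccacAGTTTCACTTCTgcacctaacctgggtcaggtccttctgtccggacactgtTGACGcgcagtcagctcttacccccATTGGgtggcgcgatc
H2-D1: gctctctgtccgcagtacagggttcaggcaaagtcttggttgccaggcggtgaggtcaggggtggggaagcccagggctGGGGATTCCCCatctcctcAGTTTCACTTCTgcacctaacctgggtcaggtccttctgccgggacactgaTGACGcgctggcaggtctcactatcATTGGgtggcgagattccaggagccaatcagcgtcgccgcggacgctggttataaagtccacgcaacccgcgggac
B2m: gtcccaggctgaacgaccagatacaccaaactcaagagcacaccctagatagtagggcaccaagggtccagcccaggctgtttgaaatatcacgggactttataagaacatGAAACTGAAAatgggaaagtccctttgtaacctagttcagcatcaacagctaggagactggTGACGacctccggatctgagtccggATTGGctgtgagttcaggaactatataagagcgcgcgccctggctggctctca
Tap1 and Psmb9: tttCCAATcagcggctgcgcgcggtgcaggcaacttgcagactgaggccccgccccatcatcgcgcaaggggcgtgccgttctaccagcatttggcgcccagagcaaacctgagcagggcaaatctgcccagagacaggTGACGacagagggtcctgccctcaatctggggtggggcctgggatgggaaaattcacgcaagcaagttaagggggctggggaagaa

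The motifs were chosen after the sequences were seen, and a match is a description and not a binding site. They were searched on both strands of the 250 bases before 32851 transcript starts of 27025 genes. *Tap2* and *Nlrc5* had no window, so 8 of the 10 genes were searched. The kappaB site and the class I form of the ISRE were read from the *H2-K1* window. The kappaB site GGGGATTCCCC, found in 0.0304% of all windows, was in *H2-K1* and *H2-D1*, 111 and 171 bases before the start. The class I ISRE, AGAAGTGAAACT, found in 0.0274% of windows, lay on the opposite strand in the same genes. *B2m* held the general ISRE core GAAANNGAAA, which 2.98% of windows held. An X2 core TGACG followed by an inverted Y box ATTGG at 18 to 24 bases was found in 0.283% of windows, and in *H2-K1*, *H2-D1*, and *B2m* the cores were 20 bases apart in each. Single cores were common, with TGACG in 17.8% of windows and in 5 of the 8 genes, and CCAAT in 33.8% and in 6 of the 8. The windows of *H2-K1* and *H2-D1* shared an unbroken run of 47 bases around the kappaB site. The transcripts of these paralogs are also close, and the signal of their probes may be shared.

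Values are the log2 of the background-subtracted signal with the 75th percentile of its array subtracted, so they compare mice for 1 probe but not probes with each other. The arrays lay on 2 slides. Slide 1 held wild-type replicates 1 and 2, *Fcgr2b*-/- replicates 1, 2, and 4, double-deficient replicate 1, and *Sting*gt/gt replicates 1 and 2, and slide 2 held the rest. As a check of the labels, the *Fcgr2b* signal of the 8 mice without *Fcgr2b* ran from −0.40 to 0.70 and that of the wild-type mice from 1.14 to 2.13, while the *Sting*gt/gt mice were at 1.54, 1.05, 0.70, and −0.19. *Sting*gt/gt replicates 2 to 4 thus lay below every wild-type mouse, with replicate 3 at the upper edge of the mice without the gene and replicate 4 among them. The probe of *Sting1* did not separate the *Sting* genotypes, so the *Sting* labels could not be checked by it. Its signal was highest in *Fcgr2b*-/- replicates 1 and 4, at 2.69 and 2.49, against −0.12 and −0.27 in replicates 2 and 3. All 12 kidney markers were tested, and their mean relative to wild-type ran from −0.26 to 0.43 over the 16 mice. Some arrays stood apart over all genes. Relative to the mean of the wild-type mice, 21% of the tested probes were at least 2-fold higher in *Sting*gt/gt replicate 4, 20% in *Fcgr2b*-/- replicate 1, and 14.2% in wild-type replicate 1, against 1.24% to 11.5% in the other 13 mice.

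**Figure D1:**
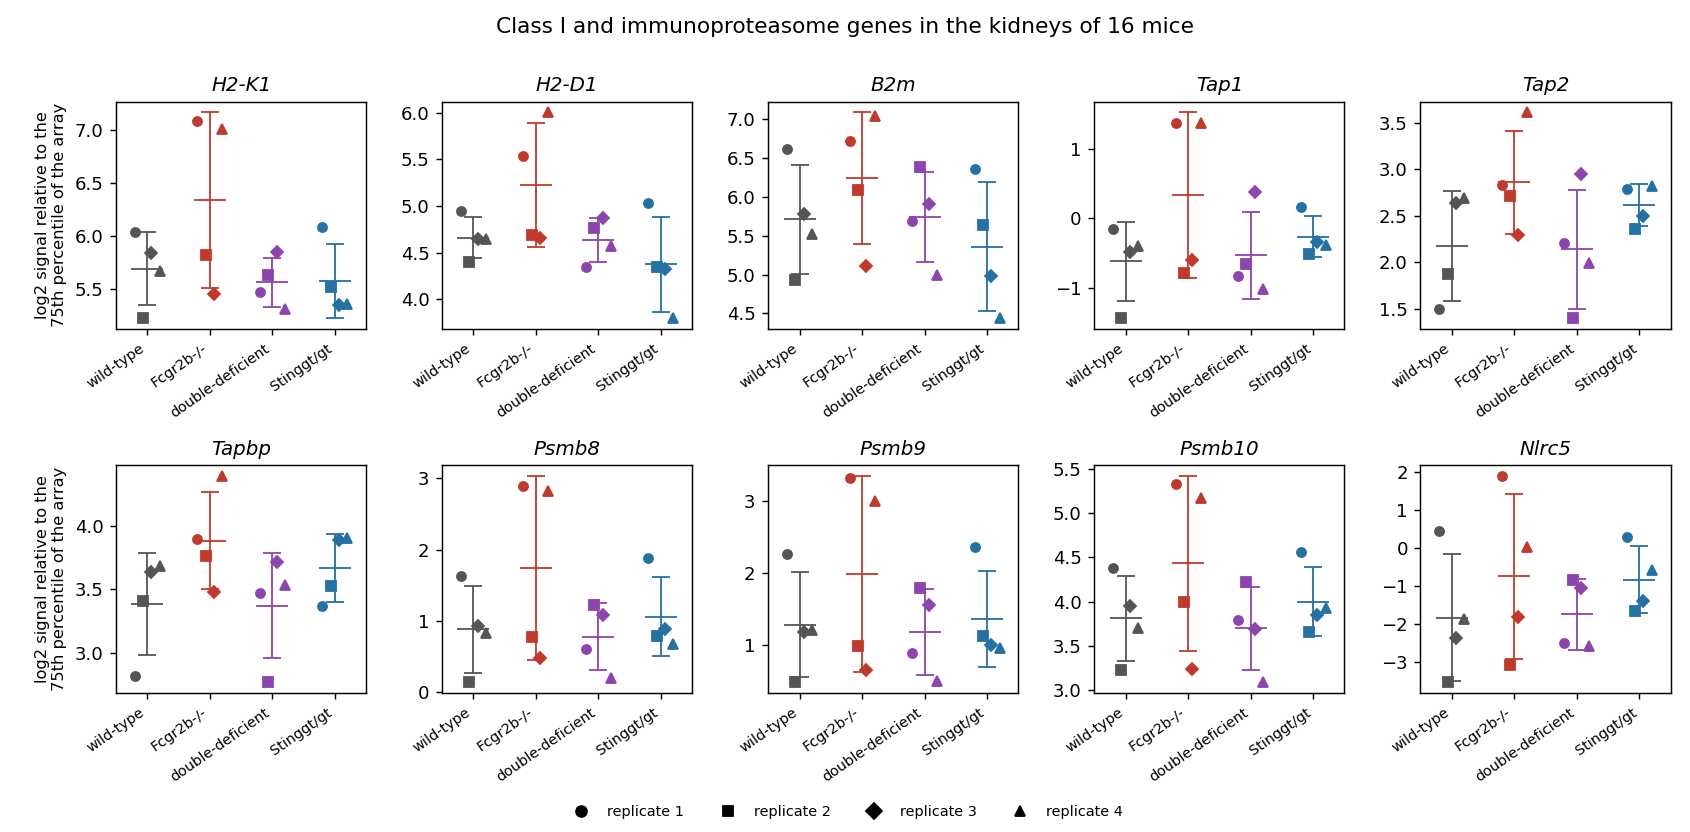
Log2 signal (y axis, minus the 75th percentile of its array) for the 10 genes in each of 16 mice, by genotype (x axis). Points are mice, with a marker for each replicate number, and bars are the mean ± SD of 4 mice. *Fcgr2b*-/- replicates 1 and 4 lie above the other 2 mice of their genotype for all 10 genes, and the genotypes overlap for all 10.

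The heavy chains and the light chain had higher means in the *Fcgr2b*-/- mice than in the wild-type mice, with overlapping groups. *H2-K1*, a classical heavy chain, was at 6.04, 5.22, 5.84, and 5.67 in wild-type replicates 1 to 4 and at 7.09, 5.82, 5.45, and 7.02 in *Fcgr2b*-/- replicates 1 to 4. Its values were 5.47, 5.63, 5.85, and 5.30 in the double-deficient and 6.08, 5.51, 5.35, and 5.35 in the *Sting*gt/gt mice. Thus 2 *Fcgr2b*-/- mice lay about 1 log2 unit above all 14 other mice, and the other 2 lay within the wild-type range. Between the genotypes *H2-K1* differed by a log2 change of 0.65 (SE 0.35, unadjusted p = 0.083 from limma). The second probe of *H2-K1* was higher by 0.49 (SE 0.30). *H2-D1*, the other classical heavy chain, averaged 4.66 ± 0.22 (SD, n = 4) in wild-type and 5.22 ± 0.66 in the *Fcgr2b*-/- mice, a log2 change of 0.56 (SE 0.32). It was at 5.54 and 6.01 in *Fcgr2b*-/- replicates 1 and 4 and at no more than 5.04 in any other mouse. *B2m*, the light chain that all class I heavy chains share, was at 6.62, 4.93, 5.79, and 5.52 in the wild-type and 6.73, 6.09, 5.11, and 7.05 in the *Fcgr2b*-/- mice. Here wild-type replicate 1 nearly reached the high *Fcgr2b*-/- mice, and the log2 change of 0.53 had an SE of 0.50. Its lowest value, 4.43, was in *Sting*gt/gt replicate 4, which also had the lowest *H2-D1*, at 3.80.

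The genes for peptide transport and loading split into 2 patterns. *Tap1*, a subunit of the transporter, was at −0.15, −1.45, −0.48, and −0.40 in wild-type replicates 1 to 4. It was at 1.37, −0.79, −0.61, and 1.38 in the *Fcgr2b*-/- mice, so that the spread within that genotype exceeded 2 log2 units. The log2 change was 0.96 (SE 0.50, unadjusted p = 0.073 from limma), and a dimmer second probe gave 0.89 (SE 0.60). *Tap2*, the other subunit, was at 1.50, 1.87, 2.64, and 2.70 in the wild-type mice and at 2.83, 2.71, 2.29, and 3.61 in *Fcgr2b*-/- replicates 1 to 4. It was at 2.21, 1.40, 2.95, and 1.99 in double-deficient replicates 1 to 4 and, in the *Sting*gt/gt mice, at 2.79, 2.36, 2.50, and 2.82. In contrast to *Tap1*, its lowest values were in wild-type replicate 1 and double-deficient replicate 2, and *Fcgr2b*-/- replicate 1 lay within 0.1 of *Sting*gt/gt replicates 1 and 4. Its log2 change was 0.69 (SE 0.37). *Tapbp*, which encodes tapasin, followed *Tap2* and was lowest in the same mice, at 2.81 and 2.76, and highest in *Fcgr2b*-/- replicate 4, at 4.40. Its log2 change was 0.50 (SE 0.28), and its second probe was at −0.97 ± 0.45 in the *Fcgr2b*-/- and −1.29 ± 0.62 in the wild-type mice.

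The immunoproteasome subunits were highest in the same 2 *Fcgr2b*-/- mice. *Psmb8*, which replaces the standard subunit *Psmb5*, was at 1.63, 0.14, 0.93, and 0.83 in the wild-type mice and at 2.89, 0.78, 0.49, and 2.82 in the *Fcgr2b*-/- mice. For the double-deficient mice the values were 0.61, 1.23, 1.09, and 0.20, and for the *Sting*gt/gt mice 1.88, 0.80, 0.89, and 0.68. *Fcgr2b*-/- replicates 1 and 4 were thus highest, followed by *Sting*gt/gt replicate 1 and wild-type replicate 1. This gave a log2 change of 0.86 (SE 0.53). *Psmb9*, which replaces *Psmb6*, was at 2.25, 0.47, 1.18, and 1.20 in the wild-type and 3.31, 0.98, 0.64, and 2.99 in the *Fcgr2b*-/- mice, a log2 change of 0.70 (SE 0.58). *Psmb10*, which replaces *Psmb7*, averaged 3.81 ± 0.48 (SD, n = 4) in wild-type and 4.43 ± 0.99 in the *Fcgr2b*-/- mice, a log2 change of 0.62 (SE 0.43).

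*Nlrc5*, the transactivator of class I genes, had the largest SD of the 10 genes in each genotype, from 0.88 in the *Sting*gt/gt to 2.17 in the *Fcgr2b*-/- mice. It was at 0.45, −3.53, −2.38, and −1.88 in the wild-type mice, so that wild-type replicates 1 and 2 differed by nearly 4 log2 units. In the *Fcgr2b*-/- mice it was at 1.89, −3.07, −1.81, and 0.015. The double-deficient mice were at −2.51, −0.84, −1.05, and −2.58, and the *Sting*gt/gt mice were at 0.28, −1.66, −1.41, and −0.57. Its log2 change of 1.09 between the *Fcgr2b*-/- and wild-type mice was the only one of the 10 to reach 2-fold, with an SE of 0.96 (unadjusted p = 0.274 from limma). Its second probe was above background on 2 arrays and was not tested.

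To ask whether *Fcgr2b* loss was accompanied by a higher class I and immunoproteasome signal, the *Fcgr2b*-/- mice were compared with the wild-type mice. All 10 genes were higher, with a median log2 change of 0.67, whereas 43.4% of the 35628 tested probes were higher and their median was −0.055. A call in limma took an adjusted p (Benjamini-Hochberg) under 0.05 together with a 2-fold change. None of the 10 was called, where 0.0505% of probes were, and the adjusted p was 0.9996 for each. At an unadjusted p under 0.05 there were 0 of the 10 genes, against 3.35% of probes. *Nlrc5* was 1 gene of 10 at least 2-fold higher, where 4.33% of probes were. For none of the 10 did the 4 *Fcgr2b*-/- mice lie apart from the 4 wild-type mice, where 1.24% of probes had groups that did not overlap. The median stayed above 0 with any single array left out. It was 0.43 without *Fcgr2b*-/- replicate 1 and 0.40 without *Fcgr2b*-/- replicate 4, less than the 0.67 of all mice by over 1.5 times. Within slide 1 the median change was 1.04 (3 *Fcgr2b*-/- against 2 wild-type mice, 10 genes higher), and within slide 2 it was −0.34 (1 against 2, with 2 genes higher), so the direction did not hold within slide 2.

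Leukocyte markers were high in the same mice. Of the 16 markers, 15 were tested. A higher mean in *Fcgr2b*-/- than in wild-type kidneys was seen for 12 of these, where 43.4% of probes had one. The median log2 change of the 15 was 0.86, and 6 had an unadjusted p under 0.05 in limma, where 3.35% of probes did. Relative to the wild-type mean, the mean of the 15 was 1.14, −0.67, −0.41, and −0.065 in wild-type replicates 1 to 4 and 2.39, 0.10, 0.17, and 1.61 in *Fcgr2b*-/- replicates 1 to 4. It was −0.060, 1.21, 0.18, and −0.0016 in the double-deficient mice and 1.14, 0.36, 0.20, and 0.13 in the *Sting*gt/gt mice. *Ptprc* (CD45), carried by all leukocytes, was above background in every mouse and was at 3.56 and 2.55 in *Fcgr2b*-/- replicates 1 and 4, against −0.18 and 0.083 in replicates 2 and 3. *Cd68*, a macrophage marker, was higher by 2.31 on the log2 scale (SE 0.48). It was the only marker whose *Fcgr2b*-/- mice all lay above the wild-type mice, where 0.62% of probes did. *Adgre1* and *Itgax* were higher by 2.56 (SE 0.78) and 2.51 (SE 0.75). None of these was called. The NK cell marker *Ncr1* was above background on 2 arrays and was not tested. In whole tissue, more cells of a type and more RNA per cell cannot be told apart, and the part of leukocytes in the class I values was not tested.

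**Figure D2:**
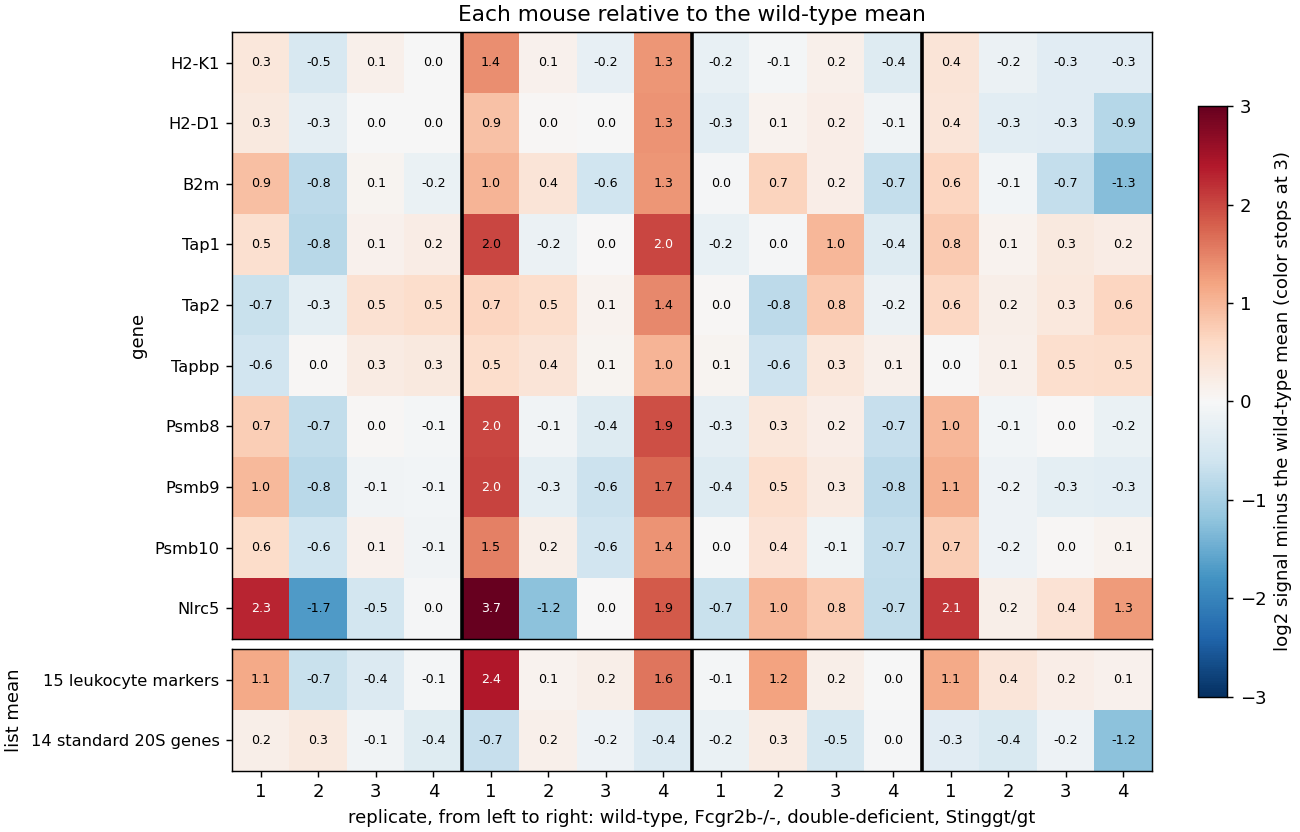
Log2 signal of each mouse (columns) minus the wild-type mean for the 10 genes (upper rows) and for the means of 15 leukocyte markers and 14 standard 20S proteasome genes (lower rows). Color and printed numbers give the same value. *Fcgr2b*-/- replicates 1 and 4 are the columns with 7 and 10 of the 10 genes higher than the mean of the wild-type mice by 2-fold or more.

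Mice of the same genotype differed widely. Averaged over the 10 genes, the log2 signal relative to the wild-type mean was 1.57, −0.019, −0.22, and 1.53 in *Fcgr2b*-/- replicates 1 to 4. It was 0.53, −0.65, 0.059, and 0.054 in the wild-type, −0.20, 0.15, 0.38, and −0.46 in the double-deficient, and 0.77, −0.036, −0.011, and −0.023 in the *Sting*gt/gt mice. *Fcgr2b*-/- replicate 4 had all 10 genes higher than the mean of the wild-type mice by 2-fold or more, and replicate 1 had 7, whereas replicates 2 and 3 had 0. Among the other 12 mice, *Sting*gt/gt replicate 1 had 2 such genes, wild-type replicate 1, double-deficient replicate 3, and *Sting*gt/gt replicate 4 had 1 each, and the rest had 0.

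**Figure D3:**
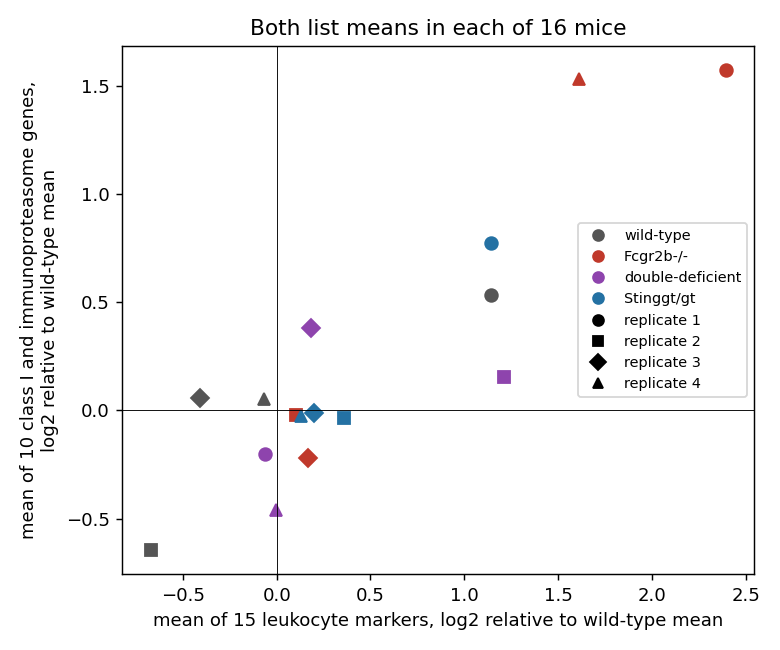
Mean of the 10 class I and immunoproteasome genes (y axis) against the mean of 15 leukocyte markers (x axis) in each of 16 mice, both as log2 relative to the wild-type mean. Color gives the genotype and the marker the replicate number. *Fcgr2b*-/- replicates 1 and 4 are highest on both axes, and wild-type replicate 2 is lowest on both.

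To ask whether STING loss was accompanied by a lower signal in the lupus mice, the double-deficient mice were compared with the *Fcgr2b*-/- mice. All 10 genes were lower, with a median log2 change of −0.76, whereas 42.5% of all tested probes were lower and their median was 0.055. This comparison shares the *Fcgr2b*-/- mice with the one above, and replicates 1 and 4 of these weigh on both. The log2 change was −0.78 (SE 0.35) for *H2-K1*, −0.59 (SE 0.32) for *H2-D1*, and −0.50 (SE 0.50) for *B2m*. For transport and loading it was −0.87 (SE 0.50) for *Tap1*, −0.72 (SE 0.37) for *Tap2*, and −0.51 (SE 0.28) for *Tapbp*. The immunoproteasome genes were lower by the same order, with −0.97 (SE 0.53) for *Psmb8*, −0.80 (SE 0.58) for *Psmb9*, and −0.73 (SE 0.43) for *Psmb10*. *Nlrc5* differed by −1.002 (SE 0.96), the 1 gene of 10 at least 2-fold lower, where 2.64% of probes were. None was called in limma (adjusted p = 0.9999 for each), where 0% of probes were. In limma *H2-K1* alone had an unadjusted p under 0.05, at 0.042, where 1.81% of probes did. In no gene did the groups lie apart, where 1.02% of probes did. Without *Fcgr2b*-/- replicate 1 or 4 the median was −0.50 or −0.48. Within slide 1 it was −1.12 (1 double-deficient against 3 *Fcgr2b*-/- mice, 10 genes lower), and within slide 2 it was 0.25 (3 against 1, with 8 genes higher), so the direction turned within slide 2. Of the 15 leukocyte markers, 11 were lower, where 42.5% of probes were, with a median of −0.99, and their part was not tested.

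**Figure D4:**
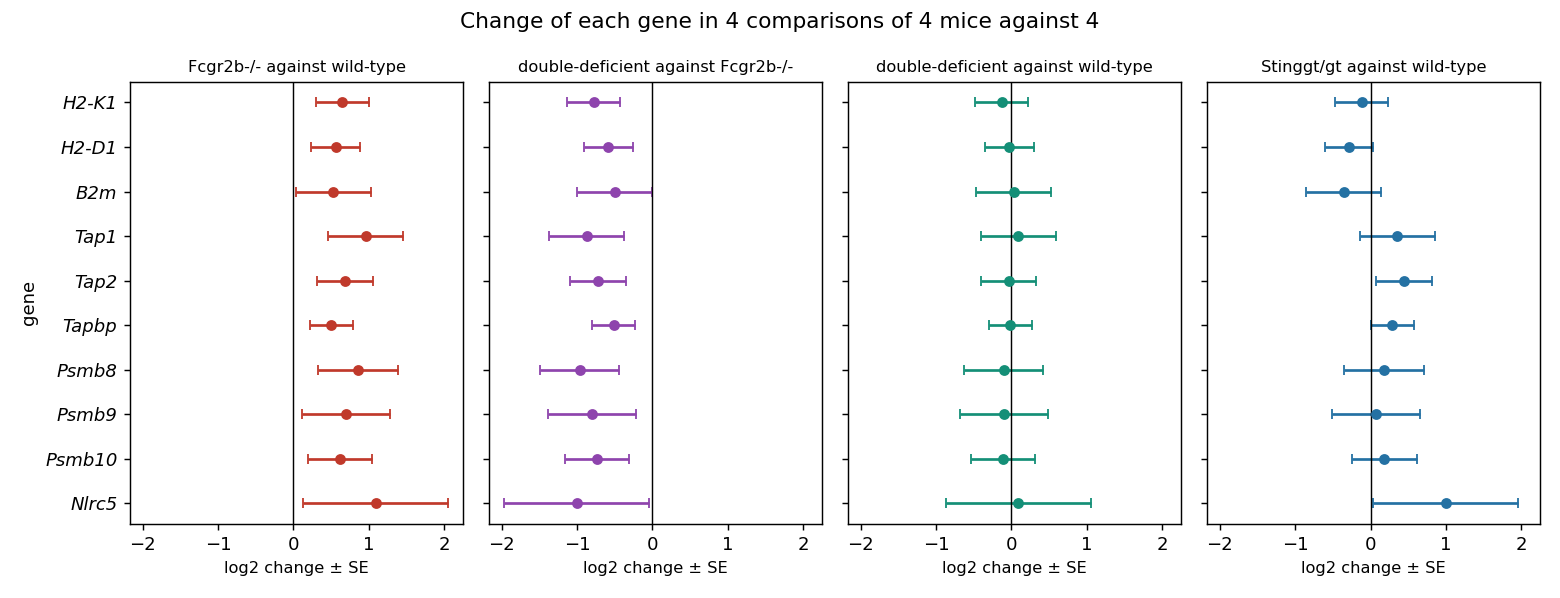
Log2 change ± SE from limma (x axis) of each of the 10 genes (y axis) in 4 comparisons of 4 mice against 4. All 10 lie above 0 for *Fcgr2b*-/- against wild-type and below 0 for double-deficient against *Fcgr2b*-/-, and in the other 2 comparisons they lie on both sides of 0.

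The double-deficient mice were close to the wild-type mice in the mean. The log2 change ran from −0.13 (*H2-K1*, SE 0.35) to 0.089 (*Tap1*, SE 0.50, and *Nlrc5*, SE 0.96), with a median of −0.031. Of the 10 genes 3 were higher and 7 lower, where 50.6% and 49.4% of probes were. None was called (0% of probes), none had an unadjusted p under 0.05 (0.424%), and none had groups that did not overlap (0.547%). The SE of these changes, 0.28 to 0.96, leaves room for changes of the size seen between the *Fcgr2b*-/- and wild-type mice. Within slides 1 and 2 the median was −0.12 and −0.015. Its sign was not fixed under the other scalings, which gave −0.15 with 0 genes higher by the median of each array and 0.018 with 6 higher in the authors' table.

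In the *Sting*gt/gt mice, which lack STING alone, 7 genes were higher and 3 lower than in the wild-type mice, where 50.1% and 49.9% of probes were, with a median log2 change of 0.18. *Nlrc5* was higher by 0.997 (SE 0.96) and *Tap2* by 0.44 (SE 0.37). *H2-K1*, *H2-D1*, and *B2m* were the 3 lower genes, at log2 changes of −0.12 (SE 0.35), −0.29 (SE 0.32), and −0.36 (SE 0.50). None of the 10 was called (0% of probes, smallest adjusted p = 0.737 in limma), none had an unadjusted p under 0.05 (3.76% of probes), and none had groups that did not overlap (2.04%). Without *Sting*gt/gt replicate 1 the median was −0.048, and without wild-type replicate 2 it was −0.041. Without replicate 4, whose *Fcgr2b* signal lay among those of the mice without the gene, it was 0.21, and without replicate 3 it was 0.22. After scaling by the median of each array it was −0.062, with 4 genes higher, where the median of all probes moved from 0.0015 to −0.24. Within slides 1 and 2 it was 0.35 and −0.051, so the direction turned within slide 2.

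The effect of STING loss on the *Fcgr2b*-deficient background was compared with that on the wild-type background by the interaction term. It was negative for all 10 genes, with a median log2 value of −0.90, whereas 48.0% of probes were negative. The values ran from −1.9996 (SE 1.36) for *Nlrc5* to −0.14 (SE 0.70) for *B2m*. *Tap2*, at −1.16 (SE 0.52), had an unadjusted p of 0.041, where 6.27% of probes had a p under 0.05. None was called (0% of probes), and the smallest adjusted p of the 10 was 0.661. The term also uses the *Fcgr2b*-/- mice, so their replicates 1 and 4 weigh on it as well. Without *Fcgr2b*-/- replicate 1 or 4 the median was −0.69 or −0.65, with 1 gene above 0 in each. Without *Sting*gt/gt replicate 4 the median was −0.98. The sign of *B2m* was not fixed, since it turned to 0.14 after scaling by the median of each array and to 0.21 with the slide as a block.

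Across the 16 mice, the genes followed each other to different degrees, given here as Pearson's r with the mean of the other 9. The points share the array and its scaling, and replicates 1 and 4 of the *Fcgr2b*-/- mice lie far from the rest, so r is also given without them. *Psmb8* had an r of 0.99 (0.96 without these mice), *Psmb9* 0.96 (0.92), *H2-K1* 0.96 (0.86), *Tap1* 0.95 (0.85), and *Psmb10* 0.93 (0.81). *H2-D1*, at 0.82 (0.51), *Nlrc5*, at 0.77 (0.69), and *B2m*, at 0.76 (0.61), were looser. *Tap2* and *Tapbp* had an r of 0.47 and 0.29, which were 0.081 and −0.35 without these mice, although they followed each other with an r of 0.90. *Psmb8* and *Psmb9*, which lie beside *Tap2* and *Tap1* in the class II region of the MHC, followed each other with an r of 0.99. Of the 10 genes, 7 are on chromosome 17, *B2m* is on chromosome 2, and *Psmb10* and *Nlrc5* are on chromosome 8. Outside the gene lists, the genes most like the mean of the 10 were *Cnp* (r = 0.97), *Irf9* (0.97), *Mcm3* (0.97), *Ccl5* (0.97), and *Bst2* (0.96), with 0.91 to 0.94 without these mice. *Irf9* is part of the factor that type I interferon activates, *Bst2* is an interferon-induced restriction factor, *Ccl5* is a chemokine of T cells and macrophages, *Mcm3* belongs to the replicative helicase, and *Cnp* is best known as a myelin enzyme.

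To compare the immunoproteasome with the standard proteasome, the log2 signal of each standard catalytic subunit was subtracted from that of its replacement on the same array, which removes the scaling of the array. For *Psmb8* minus *Psmb5*, relative to the wild-type mean, the wild-type mice were at 1.33, −1.42, −0.11, and 0.20 and the *Fcgr2b*-/- mice at 3.42, −0.43, −0.61, and 2.46. The mean difference between these genotypes was 1.21 (two-sided exact permutation test, p = 0.343, where the smallest p that 70 relabellings allow is 0.029). *Psmb9* minus *Psmb6* was higher by 1.04 (exact permutation p = 0.371) and *Psmb10* minus *Psmb7* by 1.24 (exact permutation p = 0.257). In each pair, *Fcgr2b*-/- replicates 1 and 4 lay above all wild-type mice and the other 2 did not. Between the double-deficient and *Fcgr2b*-/- mice the differences were −1.13, −1.02, and −1.27 (exact permutation p = 0.343, 0.343, and 0.171), and for double-deficient against wild-type they were 0.075, 0.025, and −0.030 (p = 0.943, 0.971, and 0.971 from the same exact test). In the *Sting*gt/gt mice *Psmb10* minus *Psmb7* was at 1.16, 0.46, 0.59, and 2.64, higher than wild-type by 1.21 (exact permutation p = 0.057), and 3 of its 4 mice lay above all wild-type mice. Replicate 4 of these mice carried the lowest *Psmb7*, at −2.52 relative to the wild-type mean. Without it the difference was 0.74 (exact permutation p = 0.143). The other 2 pairs were higher there by 0.65 and 0.35 (exact permutation p = 0.400 and 0.600). Over the 12 comparisons the smallest adjusted p was 0.600.

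**Figure D5:**
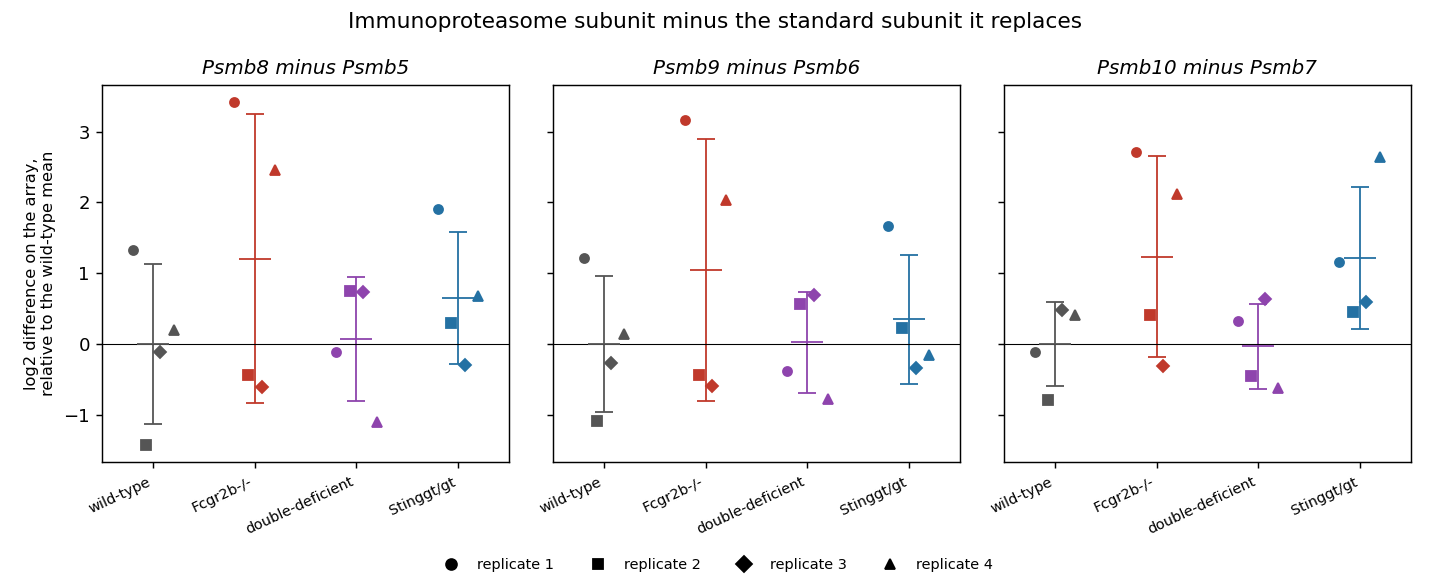
Log2 signal of an immunoproteasome subunit minus that of the standard subunit on the same array, relative to the wild-type mean (y axis), by genotype (x axis), for 3 pairs. Points are mice and bars are the mean ± SD of 4 mice. In each pair 2 of 4 *Fcgr2b*-/- mice lie above all wild-type mice, and the genotypes overlap.

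The standard proteasome did not follow the immunoproteasome. All 14 genes of the standard 20S core were tested, and all 14 had a lower mean in *Fcgr2b*-/- than in wild-type kidneys, where 56.6% of probes were, with a median log2 change of −0.28 and none called. The log2 change was −0.62 (SE 0.47) for *Psmb7*, −0.35 (SE 0.41) for *Psmb5*, and −0.34 (SE 0.27) for *Psmb6*. Against the *Fcgr2b*-/- mice, 13 of the 14 were higher in the double-deficient mice, where 57.5% of probes were, with a median of 0.14. The *Sting*gt/gt mice had all 14 lower than wild-type, with a median of −0.50, and their replicate 4 had 7 of the 14 lower than the wild-type average by 2-fold or more.

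Of the 18 nonclassical class I and class I-like genes, 16 were tested, and 10 had a higher and 6 a lower mean in *Fcgr2b*-/- than in wild-type kidneys, with a median log2 change of 0.30. *H2-M3*, which presents formylated peptides, was higher by 0.90 (SE 0.63), *H2-Q10*, a secreted class I molecule, by 0.65 (SE 0.38), and *H2-Q1*, above background in only 2 of 4 mice of both genotypes compared, by 0.61 (SE 0.52). *H2-M3* was highest in *Fcgr2b*-/- replicates 1 and 4, at 2.39 and 1.78 above the wild-type mean. Of the 9 genes for chaperones and peptide trimming, 8 were tested, and 3 were higher and 5 lower, with a median of −0.099. *Psme1*, a subunit of the proteasome activator, was higher by 0.31 (SE 0.25), and the chaperones *Canx* and *Pdia3* were lower, at −0.28 (SE 0.25) and −0.20 (SE 0.22). These are general chaperones of the endoplasmic reticulum. None of these genes was called in any comparison.

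All 15 regulators of class I genes were tested, and 10 had a higher and 5 a lower mean in *Fcgr2b*-/- than in wild-type kidneys, with a median log2 change of 0.38 and none called. *Ifng*, the gene for interferon gamma, was higher by 1.05 (SE 0.96), but with only 2 of 4 *Fcgr2b*-/- and 1 of 4 wild-type mice above background. *Ciita*, the class II counterpart of *Nlrc5*, was higher by 1.03 (SE 0.68), and *Irf8*, an interferon regulatory factor of myeloid cells, by 0.93 (SE 0.44). *Irf2* was the only regulator whose *Fcgr2b*-/- mice all lay above the wild-type mice, where 0.62% of probes did, by a log2 change of 0.45 (SE 0.26), and it is named because its groups did not overlap. Relative to the wild-type mean, *Irf2* was at −0.44 in wild-type replicate 1 and −0.72 in double-deficient replicate 2. These mice also had the lowest *Tap2* and *Tapbp*, while their mean over the 10 class I and immunoproteasome genes was 0.53 and 0.15. Low values in these mice were not particular to these genes. Relative to the wild-type mean, the kidney markers *Slc12a3* and *Umod* were at −2.46 and −0.77 in the first mouse and −1.63 and −1.24 in the second. Other genes were high there, such as *Ptprc* at 2.09 and 1.77. A link between *Irf2* and the class I genes was not tested. In *Fcgr2b*-/- against wild-type kidneys, the kidney markers were split evenly, with 6 higher and 6 lower and a median of −0.011. *Nphs1*, of the podocyte, was higher by 0.96 (SE 0.52), and *Cdh5*, of the endothelium, by 0.81 (SE 0.54). Of the 7 red cell markers 6 were tested, 1 higher and 5 lower, with a median of −0.26. Among the lower genes, the log2 change was −0.85 (SE 0.53) for *Slc4a1* and −0.49 (SE 0.52) for *Hbb-bt*.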

How the data were processed

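Kidney RNA of 16 mice (100 ng each) was labelled and hybridized to one-color Agilent arrays, 1 mouse on each. The authors deposited scanner files (Feature Extraction 11.0), whose processed values are intensities per spot, background-subtracted but not scaled between arrays. A series table of log2 values, also deposited by the authors, had column medians of 4.93 to 5.54. Each column was closest to its own array (r of at least 0.9975). The sorted values of columns with the same replicate number differed by at most 0.00077, and those of different numbers by 0.22 to 0.64 at most, so the table was quantile scaled within each set of 4 arrays of 1 replicate number. How it was centered is not given in the sources used here.

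From the intensities, spots marked as controls or outliers were left out, log2 values were averaged over the spots of a probe, and the 75th percentile of the array was subtracted. No spot was saturated. The 35628 probes of 56605 that were well above background on at least 4 of 16 arrays were fitted with limma 3.58.1 (R 4.3.3), with a mean for each genotype over all 16 arrays. A call needed a Benjamini-Hochberg adjusted p under 0.05 over all tested probes and a change of at least 2-fold. Gene names came from a RefSeq table of GRCm38.p6, which 58.3% of probes matched. Pairs of subunits were compared by the two-sided exact permutation test (scipy 1.17.1), adjusted over 12 comparisons. The limma fit was also run on simulated data, with 200 of 35628 probes changed. It called 52.5% to 61.5% of those changed by 2 log2 units, with 5 to 8 false calls. At 3 log2 units it called 83% to 86.5%, with 5 to 12 false calls. Between *Fcgr2b*-/- and wild-type mice the class I and immunoproteasome genes changed by 0.50 to 1.09 log2 units. Changes of this size were not simulated. The lack of a call thus does not show that these genes were unchanged.

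The genes and lists were chosen with earlier results of these data known. Named are the 10 genes, *Psmb5*, *Psmb6*, and *Psmb7*, of each other list up to 3 genes with the largest change between *Fcgr2b*-/- and wild-type mice, the 5 genes outside the lists most correlated with the mean of the 10, and *Fcgr2b* and *Sting1*. *Ptprc* and *Irf2* were named after their values were seen. Some genes that this rule names are not reported here.

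The alternatives were normexp (offset 50), quantile and median scaling, the authors' table, no filter, a filter on all 16 arrays, fitting the compared groups alone, the methods' two-tailed Mann-Whitney test, trended and robust eBayes, calls without a fold threshold, the median over a gene's probes, blocks by slide, by replicate number, and by the first number of the animal label, and each array left out in turn. Some mice share the first number of the animal label. These are wild-type replicates 3 and 4, *Fcgr2b*-/- replicate 4 with double-deficient replicate 3, and *Fcgr2b*-/- replicate 3 with double-deficient replicate 4. The correlation that limma fitted within a shared number was 0.83, while the main fit treats all 16 mice as independent. The authors' table with the replicate number as a block was added after seeing the data.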

Additional observations from a re-analysis of the deposited data

Results flagged for a closer look

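*Psmb9* in *Sting*gt/gt replicate 1, at a scaled log2 signal of 2.35, stood apart from the other 3 mice of its genotype, at 1.12, 0.99, and 0.95. Its gap to the nearest mouse was 0.88 of the range of the genotype. Chance flags about 1 in 20 such groups, and 40 groups of the 10 genes and 12 of the subunit pairs were looked at. The mean of the 15 leukocyte markers was also highest of its genotype in this mouse, at 1.14 relative to the wild-type mean, and its part was not tested.

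For *Nlrc5*, every double-deficient mouse lay below the *Fcgr2b*-/- mean and every *Sting*gt/gt mouse lay above the wild-type mean. The mean effect of STING loss thus ran in opposite directions, but the groups overlapped. *Fcgr2b*-/- replicate 2, at −3.07, lay below every double-deficient mouse, and wild-type replicate 1, at 0.45, lay above every *Sting*gt/gt mouse. The difference of the effects was −1.9996, which did not pass limma's test (SE 1.36, adjusted p = 0.667).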

How the results depend on the processing

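None of the 10 genes was called under any alternative fit in limma or with any array left out. The methods' Mann-Whitney test, unadjusted and with a 2-fold change, also called none, and after adjustment it could call none, since 0.029 is the smallest exact p that 4 mice against 4 allow. All 10 stayed higher in *Fcgr2b*-/- than in wild-type mice and lower in double-deficient than in *Fcgr2b*-/- mice in every setting, with medians of 0.51 to 0.79 and −0.85 to −0.60 under the alternatives, and of 0.40 to 0.98 and −1.10 to −0.48 with an array left out. The filters, eBayes options, the replicate block, the fit of the compared groups alone, and leaving out another genotype's array could not move these medians. With an array left out, the medians of double-deficient and of *Sting*gt/gt against wild-type ran from −0.26 to 0.11 and from −0.048 to 0.29. Scaling by the median of the array moved the median of all probes from −0.055 to −0.21 in *Fcgr2b*-/- against wild-type, where the 10 genes were at 0.51. The interaction could not be run in a fit of only the groups compared or by the Mann-Whitney test.

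Small differences changed sign. *Psmb8* minus *Psmb5* between double-deficient and wild-type mice was −0.0079 after quantile normalization (−0.40 to 0.52 with an array left out). *Psmb9* minus *Psmb6* was −0.0088 with normexp, −0.080 after quantile normalization, and −0.060 in the authors' table (−0.34 to 0.43), and in *Sting*gt/gt mice it ran from −0.088 to 0.76. *Psmb10* minus *Psmb7* ran from −0.29 to 0.17 in double-deficient and from 0.74 to 1.47 in *Sting*gt/gt mice, where 1.47, without *Sting*gt/gt replicate 2, had an exact permutation p of 0.029. The interaction of *B2m* was 0.14 with median scaling, 0.21 with the slide as a block, and −0.52 to 0.19 with an array left out. The cause was not tested.

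Over all probes, *Fcgr2b*-/- against wild-type gave 18 calls, but 5 with normexp, 7 in the authors' table, 3 with the animal label as a block, 0 with only probes above background on all 16 arrays or only the groups compared, and 0 to 37 with an array left out.

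After the genotype mean of each tested probe was subtracted, same-numbered mice of the genotypes compared had a Pearson's r between −0.60 and 0.69. For *Fcgr2b*-/- against wild-type mice r was 0.69, 0.60, −0.072, and 0.49 in replicates 1 to 4. The replicate numbers were not taken as pairs. Of the *Fcgr2b*-/- mice 3 of 4 correlated best with the wild-type mouse of their own number, as did 1 of 4 *Sting*gt/gt and 0 of 4 double-deficient mice. Each replicate number holds 1 array of each genotype, so the replicate block could not change the medians (0.67 and −0.76). With it none of the 10 genes was called, and 16 probes were. In the authors' table, scaled within each replicate number, the block also gave 16 calls.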
